A study of Mus musculus with 4 samples.

Results

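Windows around maternally methylated imprinting control regions were examined through the array probes that start in them. The 10 windows of the mouse genome are named Peg3, Snrpn, Kcnq1ot1, Mest, Peg10, Grb10, Igf2r, Gnas, Nnat and Plagl1. Each was drawn around a control region, and not every probe of a window need lie in that region. The windows hold 312 of the 415749 usable probes and 38 of the 56653 regions into which neighbouring probes were joined. The Kcnq1ot1 window holds none of the probes used here, so that Kcnq1ot1 was not analysed here and 9 windows carry the results. DNA came from livers of C57BL/6J fetuses taken on gestation day 18. The food restricted pool came from fetuses whose mothers were given, between gestation days 10 and 17, 50% of what freely fed dams consumed, and the control pool from fetuses of those freely fed dams. Each group was 1 pool, described as N = 6, and the labels do not say whether this counts fetuses or litters. Methylated DNA was precipitated from each pool and hybridised against total DNA of the same pool on 2 arrays with the dyes exchanged. Slide 1 held both pools in one dye orientation and slide 2 both in the other, so both arrays of a pool repeat 1 sample technically and no test between the pools was possible.

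Imprinted genes are expressed from the copy of one parent. At a maternally methylated control region, the copy inherited through the egg is methylated and the copy from the sperm is not. The mark is set in the growing oocyte and is kept through the wave of demethylation after fertilisation, when the zinc finger protein ZFP57 binds its methylated recognition sequence TGCCGC, and somatic tissues including liver then carry it on one of the parental alleles. Many of these regions overlap a promoter that is active on the unmethylated paternal copy. The assay reads DNA of both alleles and of all cells together, so neither the parental origin of the signal nor the methylated share per cell or per allele can be told apart, and the label "maternally methylated" itself was not testable here.

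The promoters of these genes show how differently the CpG sites, the targets of methylation, are packed. RefSeq promoters on build GRCm38.p6, each running from 250 bases before to 50 bases after a gene start, were found for 9 of the 10 named genes, Kcnq1ot1 among them. Together with the antisense RNA Airn, which is listed with Igf2r, these genes have 19 promoters in the table. Their CpG sites run from 2 in one Snrpn promoter to 45 in one Grb10 promoter. The following 5, from 5 windows and of low to high CpG content, include of the 4 Snrpn promoters the one with most CpG sites, and capitals mark each CpG, written 5′ to 3′ on the strand of the gene.
Snrpn, chr7:60005150-60005449, strand -: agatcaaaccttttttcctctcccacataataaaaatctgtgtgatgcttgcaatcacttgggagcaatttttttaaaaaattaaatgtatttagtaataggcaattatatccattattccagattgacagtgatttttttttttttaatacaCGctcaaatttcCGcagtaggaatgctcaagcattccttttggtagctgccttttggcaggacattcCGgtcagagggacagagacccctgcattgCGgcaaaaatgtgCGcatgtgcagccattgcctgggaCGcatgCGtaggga
Peg3, chr7:6730370-6730669, strand -: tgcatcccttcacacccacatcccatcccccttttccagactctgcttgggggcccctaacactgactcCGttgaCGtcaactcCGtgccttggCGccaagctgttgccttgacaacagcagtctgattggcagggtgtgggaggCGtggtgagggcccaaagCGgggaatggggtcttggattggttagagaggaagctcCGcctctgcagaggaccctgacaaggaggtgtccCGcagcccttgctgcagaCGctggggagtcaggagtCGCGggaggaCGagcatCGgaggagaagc
Mest, chr6:30737800-30738099, strand +: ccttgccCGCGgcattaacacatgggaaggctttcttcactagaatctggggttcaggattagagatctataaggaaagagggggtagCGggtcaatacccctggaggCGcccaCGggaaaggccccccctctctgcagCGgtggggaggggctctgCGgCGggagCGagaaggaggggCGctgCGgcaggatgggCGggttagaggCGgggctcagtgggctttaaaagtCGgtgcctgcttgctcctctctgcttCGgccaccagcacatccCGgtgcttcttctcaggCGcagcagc
Plagl1, chr10:13090582-13090881, strand +: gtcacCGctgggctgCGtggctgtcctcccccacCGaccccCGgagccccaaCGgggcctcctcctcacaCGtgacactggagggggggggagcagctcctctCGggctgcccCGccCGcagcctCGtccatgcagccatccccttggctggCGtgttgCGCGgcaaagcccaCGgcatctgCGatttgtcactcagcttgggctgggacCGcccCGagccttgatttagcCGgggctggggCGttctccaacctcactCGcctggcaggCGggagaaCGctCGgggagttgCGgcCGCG
Igf2r, chr17:12769657-12769956, strand -: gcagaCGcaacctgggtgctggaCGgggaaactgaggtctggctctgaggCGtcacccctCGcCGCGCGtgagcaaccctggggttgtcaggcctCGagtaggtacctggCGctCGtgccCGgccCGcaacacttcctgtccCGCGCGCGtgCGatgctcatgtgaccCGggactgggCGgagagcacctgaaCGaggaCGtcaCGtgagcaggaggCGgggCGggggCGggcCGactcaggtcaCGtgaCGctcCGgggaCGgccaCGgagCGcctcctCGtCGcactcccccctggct
These stretches hold 7 CpG sites in Snrpn, 13 in Peg3, 17 in Mest, 26 in Plagl1 and 34 in Igf2r, against a median of 7 over the 32851 promoters of the table. TGCCGC was searched on both strands, as itself or as GCGGCA, and matches on opposite strands can share at most 2 bases. It was found in a promoter of 5 of the 9 genes, namely Snrpn, Mest, Nnat, Plagl1 and Grb10. By promoter this is 6 of 19, with Airn counted and without a match, and 2 of the 6 are Mest promoters that overlap almost wholly. Over all promoters 11.6% hold a match, and a match is a description of the letters only. The probe positions are on build mm9 and the promoters on GRCm38.p6, so no probe was assigned to a promoter, exon or intron.

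Enrichment is written as M, which is log2 of the precipitated over the total DNA signal, with the median of each array set to 0. M rises with methylation and with CpG density, and it is a relative value, not a percentage of methylated cytosines. Enrichment was above that of the array in most windows, with Grb10 and Snrpn as exceptions over their whole probed length. The median M of the 312 probes was 1.99 and 2.13 in the food restricted pool on slides 1 and 2, against 2.07 and 2.07 in the control pool, where the median of all probes is 0 by construction. M was at least 1 on all 4 arrays at 186 of the 312 probes (59.6%), against 27.2% of all probes. This share was 13.3% in Grb10 and 27.3% in Snrpn, and between 38.9% in Igf2r and 100% in Mest in the other windows. With loess within each array, the median M over the windows was 0.99 in the food restricted pool and 0.59 in the control pool. By region, 24 of the 38 reached this level, against 25.3% of all regions.

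Much of the enrichment lay in runs of neighbouring probes. A run of at least 3 neighbouring probes, at most 500 bp apart and with M of at least 1 on all 4 arrays, was present in 8 of the 9 probed windows, and Grb10 had none. In all, 17 such runs held 175 probes and covered 30918 bp. These runs were chosen on M, so their level is a description. How often such runs occur elsewhere on the array was not counted, and 27.2% of all probes had M of at least 1 on all 4 arrays. The number of windows with a run is thus no trait particular to them. The border of the main run of a window could be read at 4 edges. It is the distance from the run's outermost probe to the first probe whose mean M over the 4 arrays was 0 or less. It was 475 bp in Peg3, 482 bp in Snrpn, 510 bp at the end of the Peg10 run and 2000 bp at its start. At all other edges no such probe was reached among neighbouring probes, after as many as 11 probes in Plagl1.

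**Figure D1:**
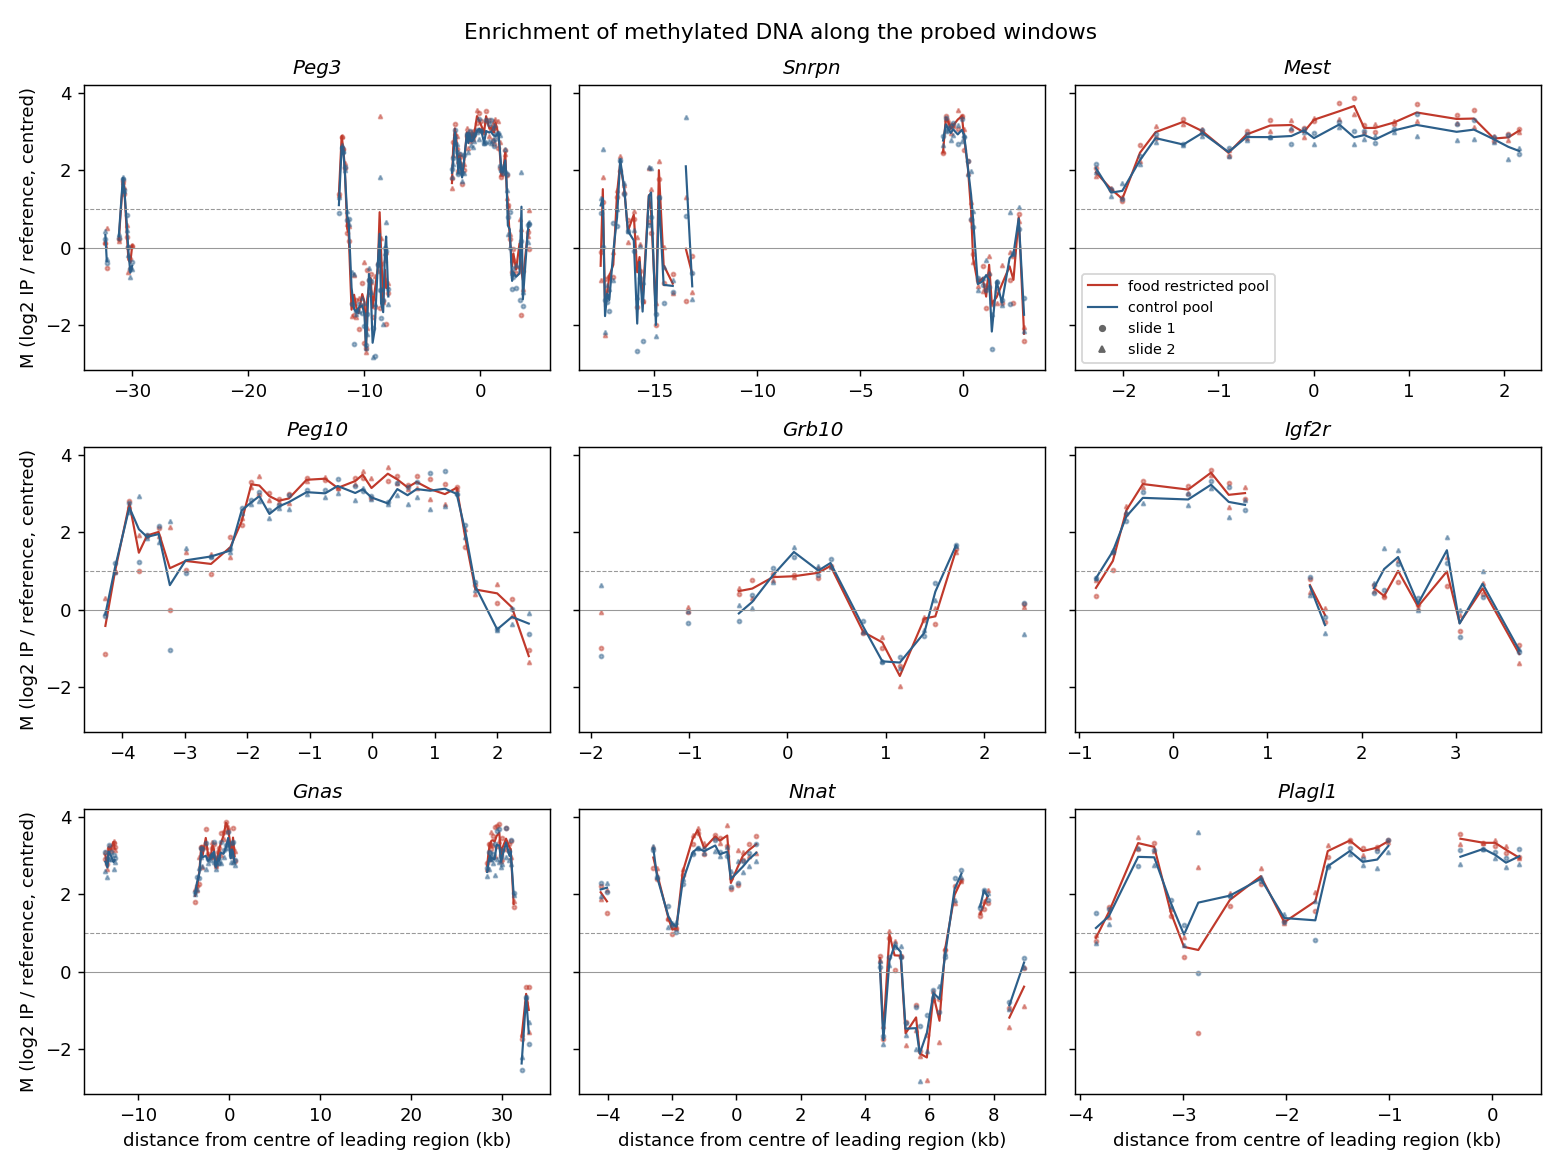
M at each probe of the 9 probed windows (y axis, log2 of precipitated over reference signal, centred per array) against the distance from the centre of the region with the highest M in kb (x axis). Circles are slide 1, triangles slide 2, lines the mean of both arrays of a pool, broken where probes lie over 500 bp apart, and the dashed line is M of 1. Plateaus near M of 3 appear in 8 windows, and in Grb10 the probes stay below M of 2.

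Peg3 encodes a zinc finger protein that is expressed from the paternal copy. Its window on chromosome 7 held 74 probes between 6650152 and 6686624, and its main enriched run covered 4748 bp from 6679959 to 6684706 with 30 probes. The median M of that run was 2.82 and 2.88 in the food restricted pool, against 2.79 and 2.70 in the control pool. From the last probe of the run, with M of 1.58 in the food restricted pool and 1.70 in the control pool, M fell within 475 bp to -0.48 in the food restricted pool and -0.85 in the control pool. A short run of 316 bp lay at 6670472 to 6670787, at 2.54 and 2.58 in the food restricted pool and 2.47 and 2.49 in the control pool. The lowest region of the window, from 6671748 to 6673016, began less than 1 kb beyond it and was near the floor, with M of -1.14 and -1.38 in the food restricted pool and -1.65 and -1.52 in the control pool. Only 1 of its 8 probes was well above background in the precipitated channel of either pool.

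Snrpn, which encodes a spliceosomal protein, lies in the domain whose human counterpart is altered in Prader-Willi and Angelman syndromes. Its 44 probes on chromosome 7 held 1 enriched run of 1260 bp, from 67149076 to 67150335, with 9 probes. M of this run was 3.17 and 3.13 in the food restricted pool, against 3.09 and 2.90 in the control pool. M at the last probe of the run was 2.08 in the food restricted pool and 2.07 in the control pool, and 482 bp further it was -0.92 in the food restricted pool and -0.93 in the control pool. The next region, from 67151162 to 67153056, was the lowest of the window, at -1.43 and -0.45 in the food restricted pool and -1.09 and -0.65 in the control pool.

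Mest, which encodes a protein of the hydrolase fold family, had 24 probes on chromosome 6, from 30684694 to 30689200. All 24 had M of at least 1 on all 4 arrays, and they formed 1 run of 4507 bp, so that no border was seen inside the probed stretch. M of the run was 3.06 and 3.04 in the food restricted pool, against 2.92 and 2.76 in the control pool. Its lowest region, from 30684694 to 30686146, still stood at 2.52 and 2.39 in the food restricted pool and 2.47 and 2.26 in the control pool.

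Peg10, a gene derived from a retrotransposon and needed for the placenta, had a main run of 3821 bp on chromosome 6 from 4695854 to 4699674, with 21 probes. M of this run was 3.21 and 3.13 in the food restricted pool and 3.05 and 2.73 in the control pool. M declined within 510 bp of its end to 0.42 in the food restricted pool and -0.51 in the control pool. These are the values of a single probe, whose mean M over the 4 arrays was -0.04. A smaller run of 528 bp at 4694238 to 4694765 had M of 2.01 and 1.93 in the food restricted pool and 2.04 and 2.18 in the control pool. The lowest of the 4 regions, from 4699055 to 4700691, spans the border and stood at 1.13 and 1.37 in the food restricted pool and 1.45 and 1.18 in the control pool.

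Gnas encodes the stimulatory G protein alpha subunit from a locus with several promoters, at which methylation of the maternal and of the paternal allele is known at neighbouring sites. It was the most uniformly enriched of the windows that reach over more than 10 kb, with 41 of 44 probes at M of at least 1 on all 4 arrays. The probes lay in 3 separate blocks on chromosome 2. The first run, from 174110049 to 174111114, had M of 3.15 and 3.17 in the food restricted pool and 3.05 and 2.74 in the control pool. The second, from 174119930 to 174124316, had 3.19 and 3.11 in the food restricted pool and 3.02 and 2.84 in the control pool. The third, from 174152076 to 174155044, had 3.34 and 3.05 in the food restricted pool and 3.09 and 2.80 in the control pool. The blocks were thus at nearly one level, and the spread between the 2 arrays of a pool was as large as that between blocks. The lowest region, from 174155866 to 174156700 with 3 probes, lay less than 1 kb beyond the third run and had M of -0.40 and -1.56 in the food restricted pool and -1.86 and -1.30 in the control pool.

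Nnat, which encodes the small membrane protein neuronatin, had a run of 2529 bp on chromosome 2 from 157384755 to 157387283 with M of 3.25 and 3.14 in the food restricted pool and 3.05 and 2.85 in the control pool. Another run from 157384037 to 157384564 stood at 2.39 and 2.68 in the food restricted pool and at 2.44 and 2.44 in the control pool. The weakest, from 157394205 to 157394487, was at 1.63 and 1.82 in the food restricted pool and 1.86 and 2.04 in the control pool. Between the main run and the weakest one lay the lowest region, from 157391080 to 157392376, at -0.40 and -0.55 in the food restricted pool and -0.40 and -0.72 in the control pool.

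Plagl1 encodes a zinc finger transcription factor that regulates other imprinted genes. Its 21 probes on chromosome 10, from 12807435 to 12811593, carried 4 short runs. The runs ending at 12810327 and starting at 12810974 were parted only by a gap without probes. Those ending at 12809323 and starting at 12809686 were parted by 1 probe with a mean M of 1.57, at 0.82 in the control pool on slide 1. The run from 12809686 to 12810327 had M of 3.22 and 3.28 in the food restricted pool, against 3.11 and 2.76 in the control pool. The run from 12810974 to 12811593 had 3.25 and 3.30 in the food restricted pool, against 3.15 and 2.79 in the control pool. The other two, on the side of lower coordinates, were weaker. The run from 12807559 to 12808221 had M of 2.41 and 2.37 in the food restricted pool and 2.29 and 2.23 in the control pool, and that from 12808736 to 12809323 had 1.69 and 2.02 in the food restricted pool and 1.95 and 1.98 in the control pool. The lowest region, from 12807435 to 12808795, stood at 1.55 and 1.83 in the food restricted pool and at 1.73 and 1.85 in the control pool.

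Most windows were probed only in part, and in 7 a probed part began more than 10 kb into the window. In the Igf2r and Grb10 windows the probed part lay near one end. Igf2r encodes the receptor that clears the growth factor IGF2, and its control region lies in an intron, at the promoter of the antisense RNA Airn. The Igf2r promoter itself is known to carry methylation on the silent paternal copy. The first 41492 bp of this window held no probe, and the 18 probes lay on chromosome 17 from 12961492 to 12966046. A run of 1463 bp from 12961672 to 12963134 had M of 3.20 and 3.0 in the food restricted pool and 2.99 and 2.71 in the control pool, and the lowest region, from 12964444 to 12966046, stood at 0.36 and 0.44 in the food restricted pool and 0.38 and 0.85 in the control pool. Grb10 encodes an adaptor protein that restrains signalling by the insulin and insulin-like growth factor receptors. The first 26351 bp of its window held no probe, and the 15 probes on chromosome 11 lay from 11936351 to 11940715. Its higher region, from 11937756 to 11938743, had M of 0.86 and 0.80 in the food restricted pool and 0.98 and 0.90 in the control pool, and its lower one, from 11939021 to 11940007, had -0.48 and -0.37 in the food restricted pool and -0.48 and -0.54 in the control pool. On GRCm38.p6 the Airn promoter lies at 12741061 to 12741360 and the Igf2r promoter at 12769657 to 12769956, so Airn is on the side of lower coordinates. If the window holds both at that spacing, the Airn promoter lies in the part without probes. The Igf2r run would then not be this control region, and the ranking that follows is one of windows. For Grb10 and the other windows, whether the probes lie in the control regions themselves could not be read from the files.

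The leading region of each window, the one with the highest mean M over the 4 arrays, was used to order the windows. In Gnas it ran from 174123056 to 174124316 and had M of 3.61 and 3.23 in the food restricted pool and 3.26 and 2.96 in the control pool. Peg10 followed, from 4697372 to 4698881, with 3.34 and 3.28 in the food restricted pool and 3.18 and 2.91 in the control pool. Plagl1 was next, from 12810974 to 12811593, with 3.25 and 3.30 in the food restricted pool and 3.15 and 2.79 in the control pool. The values of these 3 windows overlap. Nnat, from 157385964 to 157387283, had 3.28 and 3.11 in the food restricted pool and 3.03 and 2.85 in the control pool. Mest, from 30686276 to 30687684, had 3.18 and 3.21 in the food restricted pool and 2.97 and 2.86 in the control pool. Peg3, from 6681609 to 6683212, had 3.23 and 2.98 in the food restricted pool and 3.0 and 2.76 in the control pool. The values of Nnat, Mest and Peg3 overlap as well. Igf2r, from 12961492 to 12963134, had 3.03 and 2.84 in the food restricted pool and 2.78 and 2.61 in the control pool. Snrpn, from 67149076 to 67151050, had 2.51 and 2.97 in the food restricted pool and 2.85 and 2.76 in the control pool. This region of 13 probes crosses the border of the Snrpn run, which lowers its median. Grb10 stood alone, with no overlap with any other window on any array.

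**Figure D2:**
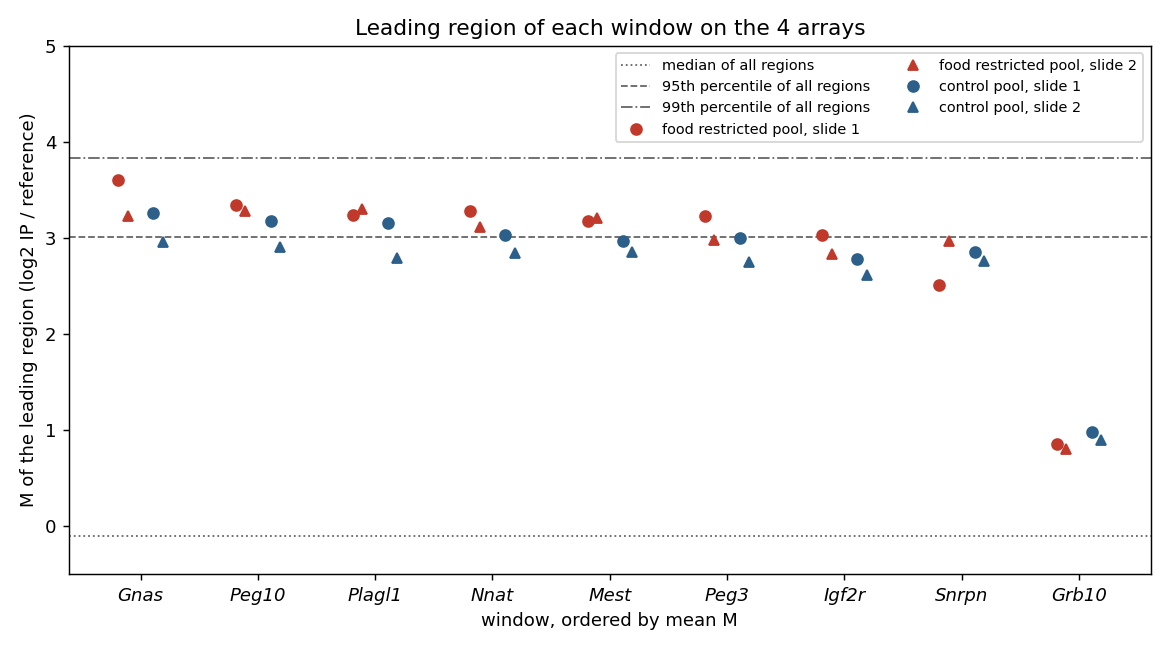
M of the leading region of each probed window (y axis, log2) by window (x axis, ordered by mean M), with 1 point per array, circles for slide 1 and triangles for slide 2. The 8 windows other than Grb10 lie between the median and the 99th percentile of all regions, close to the 95th percentile of 3.01.

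The 8 leading regions other than Grb10 had a mean M between 2.77 and 3.26, and their SD over windows was 0.17. The median SD over the 4 arrays of one of these regions was 0.19, which also holds the shifts between pools and slides that the windows share. Within arrays, Igf2r lay below Gnas, Peg10, Plagl1, Nnat, Mest and Peg3 on all 4. They lay at the 93.2nd to 96.6th percentile of all regions, a range that holds 3.37% of all regions, while a further 3.42% of all regions had a higher M, up to 4.55. Every one was chosen as the highest of its window, so these ranks describe the regions and test nothing. The highest M of any probe of the windows was 3.56, below the 99th percentile of 4.22 over all probes.

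The comparison of the pools asked whether food restriction of the mother moved these regions. Within each slide, the control value of M was subtracted from the food restricted value to give D. Calls needed a D of 0.5 or more, up or down, which is 1.41-fold, in one direction on slides 1 and 2 alike. Of the 38 regions of the windows, 0 were called higher and 0 lower, where 4.52% of all 56653 regions were called higher and 0.643% lower. Another 0 of the 38 passed that size with opposite signs on the slides, against 0.733% of all regions. These background shares are small, so nothing particular to the windows is read from the absence of calls. The share of calls over all regions depends on the scaling, with 2562 higher and 364 lower here, 659 and 593 after quantile normalization, and 803 and 1325 with each array centred on its densest value. The median D of the 38 regions was 0.14 on slide 1 and 0.20 on slide 2, against 0.04 and 0.09 over all regions. D was above 0 on both slides in 22 of the 38, below 0 on both in 5, and of different sign in 11, while 39.1% of all regions were above 0 on both slides and 23.7% below.

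The enriched regions differed between the pools by small and mostly like-signed amounts in the ratio. Among the 20 regions with M of at least 2 on all 4 arrays, D was above 0 on both slides in 18, against 63.7% of all 7068 regions at that level, and the mean D of the 20 ran from -0.07 to 0.38. In the leading regions, D was above 0 on both slides for Gnas, Peg10, Plagl1, Nnat, Mest, Peg3 and Igf2r. For each of these 7 it was below 0 in the precipitated channel alone. Once the running median along M was taken off, mean D was near 0 for Gnas (-0.005) and Peg10 (-0.012), with opposite signs on the slides. With the columns of the deposited value table taken by their titles, D was below 0 for all 7 as well. Under the assignment used here, that setting sets slide 2 against slide 1 within each pool. Its D then holds slide and dye orientation and no difference between the pools. Mean D was 0.31 for Gnas, 0.27 for Peg10, 0.30 for Plagl1, 0.26 for Nnat, 0.28 for Mest, 0.23 for Peg3 and 0.24 for Igf2r. These correspond to between 1.17-fold for Peg3 and 1.24-fold for Gnas, and they depend on the scaling. Over these 7, mean D lay between 0.57 for Mest and 0.87 for Gnas with loess, between 0.43 for Peg3 and 0.59 for Gnas with normexp, and between 0.013 for Peg10 and 0.11 for Igf2r with quantile normalization. With the densest value as centre it lay between 0.036 for Peg3 and 0.12 for Gnas. Plagl1 differed most between the slides, with D of 0.09 on slide 1 and 0.51 on slide 2. Peg3 differed least, with 0.23 on both. Snrpn had D of -0.34 and 0.21, with no common direction, and within its 9-probe run the median D was 0.03 and 0.23. Grb10 was slightly lower in the food restricted pool, with D of -0.13 and -0.10, while its mean D came to 0.02 with means over the probes, 0.19 with normexp correction, 0.21 with loess and 0.01 with quantile normalization.

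D varied with the level of enrichment over all regions of the array in a U shape. The median D was 0.38 at a mean M near -2.1, -0.11 near 0.88 and 0.83 near 4.1, and most regions of the windows lay within the 10th to 90th percentile along this course. The 1907 regions with a mean M in the range of the 8 leading regions had a median D of 0.14 on slide 1 and 0.29 on slide 2, and 74.8% of them were above 0 on both slides, while 1.42% were called higher against 0 of the 8. The 8 leading regions had a median D of 0.22 and 0.27. After D was taken relative to its running median over regions sorted by mean M, their median was 0.07 on slide 1 and 0.00 on slide 2, with a range from -0.40 to 0.18 on slide 1 and from -0.12 to 0.19 on slide 2. The lowest value on slide 1 was that of Snrpn. With 1 pool per group, a difference of the windows from equally enriched regions was not detectable beyond the spread between the slides.

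**Figure D3:**
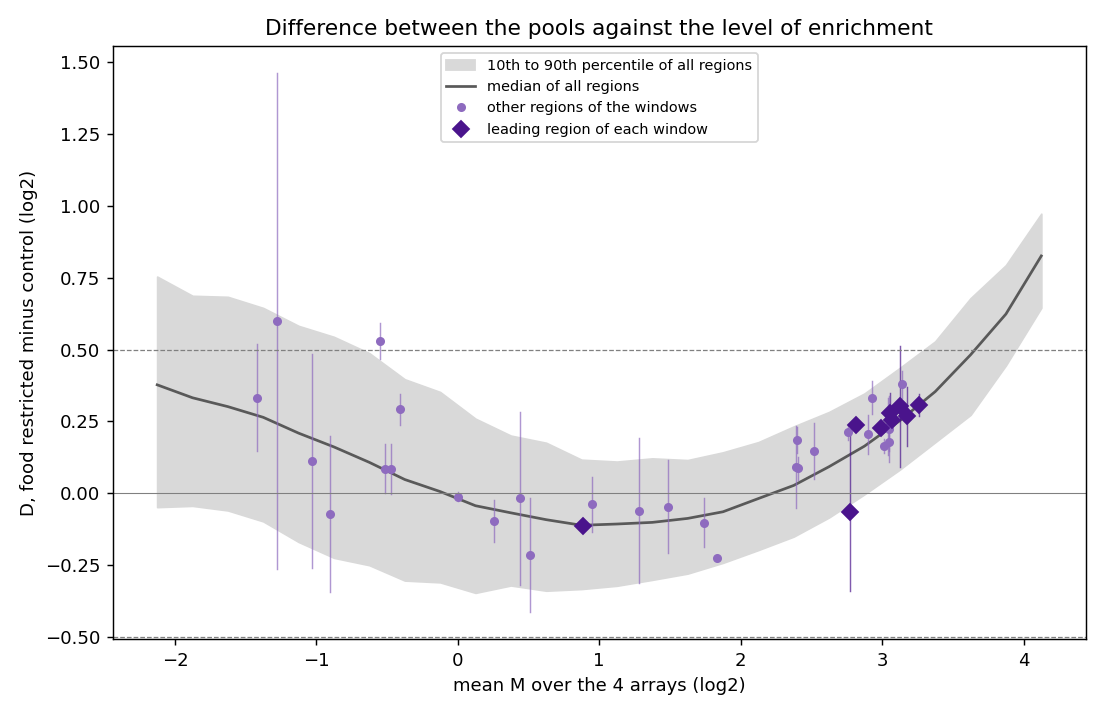
D (y axis, food restricted minus control, log2) against mean M over the 4 arrays (x axis, log2) for the 38 regions of the windows. Points are the mean of both slides and vertical lines join the slides, the grey band holds the 10th to 90th percentile of all regions, and dashed lines mark the call size of 0.5. Of the 9 leading regions, 8 lie near the median line and Snrpn at the lower edge of the band, and the 7 with D above 0 on both slides in the ratio turn negative in the precipitated channel alone and with the value table taken by its titles (Gnas and Peg10 also with the running median taken off).

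The channels behind the ratio were read separately, each centred on its array median, so that they need not add up to D. In all 8 leading regions other than Grb10, the precipitated signal was lower in the food restricted pool on both slides, with a median of -0.36 and -0.27 (over all regions -0.14 and -0.13). The reference signal was lower as well in all 8, with a median of -0.26 and -0.26 (over all regions 0.08 and 0.08). Over the 1907 equally enriched regions, the precipitated difference was -0.40 and -0.32 and the reference difference -0.35 and -0.37. Without the centring, all 8 regions had more background-subtracted precipitated signal in the food restricted pool than in the control pool on both slides. In Peg3 it was 659 and 467 in the food restricted pool, against 545 and 399 in the control pool. The median of this signal over all probes was 63.2 and 43.8 in the food restricted pool and 39.1 and 29.5 in the control pool. The sign of the precipitated channel thus depends on the centring. Without the centring, the reference signal was still lower in the food restricted pool in all 8 on both slides. In Peg3 it was 180 and 232 in the food restricted pool, against 218 and 299 in the control pool. All probes of the leading regions of Gnas, Peg10, Plagl1, Nnat, Mest, Peg3, Igf2r and Grb10, and 12 of the 13 in Snrpn, were well above background in the precipitated channel of both pools. Over the whole array, 79.9% and 80.6% of probes were so in the food restricted pool, against 72.2% and 72.0% in the control pool. The part of this gap in D was not tested.

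**Figure D4:**
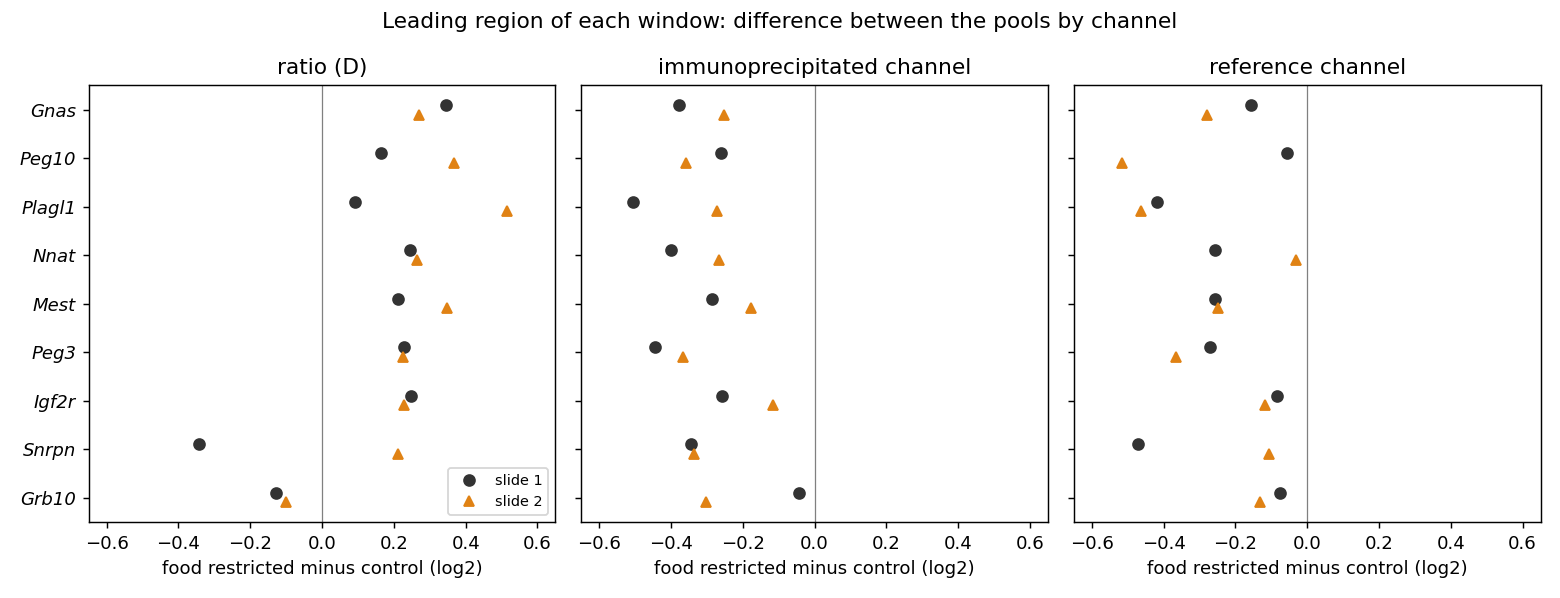
Difference between the pools (x axis, food restricted minus control, log2) in the leading region of each window, from top to bottom in order of mean M. The panels give the ratio D, the precipitated channel and the reference channel, with circles for slide 1 and triangles for slide 2, and both single channels lie below 0 in all 9 windows on both slides.

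Across the probes of a window, M of the food restricted pool correlated with M of the control pool on slide 1 at r = 0.96 in Peg3, 0.92 in Snrpn, 0.91 in Mest, 0.96 in Peg10, 0.90 in Grb10, 0.98 in Igf2r, 0.97 in Gnas, 0.98 in Nnat and 0.95 in Plagl1. Over all 312 probes r was 0.96 between the pools on slide 1 and 0.96 on slide 2. Between the repeats it was 0.93 in the food restricted pool and 0.93 in the control pool. Within Plagl1 the repeats correlated at 0.70 in the food restricted pool and 0.50 in the control pool, and in Grb10 at 0.92 in the food restricted pool and 0.81 in the control pool. The pools on 1 slide share the slide and the dye orientation, which the repeats do not, and probes of 1 array are not independent, so these values are descriptions.

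A region of the Snrpn window at lower coordinates than its run came closest to a call. On chromosome 7 from 67134265 to 67136045 (9 probes), M was -0.67 and 0.11 in the food restricted pool, against -1.14 and -0.49 in the control pool, which gave D of 0.47 and 0.59. It was singled out after its values had been seen. In the precipitated channel, 2 of its 9 probes were well above background in the food restricted pool and 2 in the control pool. The largest D on a single slide, 1.46 in the lowest Gnas region on slide 1, was -0.27 on slide 2.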

How the data were processed

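Immunoprecipitated and total DNA of 2 pools was hybridised to 2-colour tiling arrays, 4 in all. Agilent Feature Extraction 10.5.1.1 made the scanner files, per the submitters' processing notes. Per the file headers, the deposited processed intensity of each channel has local background subtracted and was scaled by a linear dye factor, and probe positions are on build mm9. Arrays were assigned by title, with 1 array of each pool on each slide. The deposited value table holds log2 of red over green, with column medians from -0.23 to 0.24, neither turned nor centred. Its columns for the food restricted array of slide 1 and the control array of slide 2 equal each other's scanner file within 0.001 at 100% of probes. The scanner files were used, because their ratios have the sign that the titles' dyes imply. The files do not settle this, and all differences between the pools rest on that assignment.

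Of 420288 spots, 4474 controls and 65 outlier probes were left out. M, log2 of precipitated over reference intensity, was centred on each array's median, with no step between arrays. Runs of probes with starts at most 500 bp apart were divided into equal pieces of at most 2000 bp. A piece of at least 3 probes was a region, with the median M of its probes as its value. A region belonged to a window when most of its probes started in it. The windows and lists were chosen with earlier results of these data known. In each window the text names the region with the highest M, the one with the lowest, and every called region. The pools kept the same array positions on both slides, so pool and position cannot be told apart. The calls were tested on simulated data. No p-value was computed, and the 4 arrays limit the precision. Alternatives changed the centring, background correction, normalization, probe filters, summary of a region, call size, enriched run and source table, or left out a slide. Signals in all windows were below saturation. Comparison windows at paternally methylated loci held 0 probes and were not analysed here. R 4.3.3 with limma 3.58.1 was used for normexp (offset 50) and loess, and Python 3.11.15 otherwise.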

Additional observations from a re-analysis of the deposited data

How the results depend on the processing

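No region of the windows was called lower in any of the settings run. Of all 56653 regions, from 1 with normexp to 2543 on slide 1 alone were called lower. The count called higher, 0 in the main setting, was 0 after quantile normalization (1.16% of all regions), with the densest value as centre (1.42%) and with means over probes (3.12%). It was 0 as well at a size of 1 (0.187%), with the running median taken off (1.075%), and without dim reference (5.19%) or dim precipitated probes (3.90%). These shares are small for 38 regions, so nothing particular to the windows is read from the counts of 0. The count called higher was 1 without centring (7.12% of all regions), 1 in the precipitated channel alone (3.33%), 2 at a size of 0.3 (12.2%), 4 with normexp (2.72%), 14 with loess (8.52%), and 3 with the value table by its titles (2.52%). Under the assignment used here, the value table by its titles sets slide 2 against slide 1 within each pool. It then holds no difference between the pools. Of the 14 with loess, 13 had M of at least 2 on all arrays in the main setting, where 56.8% of all regions at that level were called with loess. All 4 with normexp were at that level, where 21.3% of all regions were called with normexp. The cause was not tested. Slide 1 alone gave 2, against 12.3% of all regions, and slide 2 alone gave 2, against 13.7%.

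The median D of the 38 regions, 0.17, was 0.26 without centring, -0.019 with the densest value, 0.33 with loess, 0.043 with quantile normalization, 0.27 with normexp, 0.091 with means over probes, 0.026 with the running median taken off, -0.31 in the precipitated channel alone and -0.061 with the value table by its titles. The slides alone gave 0.14 and 0.20. Over all regions the median D was 0.06 in the main setting, -0.13 with the densest value and 0.15 without centring. With no replicate block, D across the slides, the median D was 0.17 and 0 regions of the windows were called. Of all regions, 3.95% were called higher in that setting and 245 lower.

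The median M of the probes, 1.98 in the food restricted pool and 2.06 in the control pool, was 2.89 and 3.16 with the densest value, 0.99 and 0.59 with loess, 1.1 and 0.90 with normexp, 2.23 and 2.26 without dim reference or saturated probes, 2.74 and 2.60 without dim precipitated probes, and 2.01 and 2.03 after quantile normalization. On single slides it ran from 1.99 to 2.13 in the food restricted pool and was 2.07 on each in the control pool. An enriched run was found in 8 windows in the main setting, in 9 with the densest value, in 6 with loess and in 8 under the other settings run for it. The share of such runs over the whole array was not counted. The number of arrays and pools limits the precision of all values.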
